A study of Caenorhabditis elegans with 24 samples.

Results

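Larvae held with bacteria and with ivermectin, given to keep them from swallowing, were compared at 24 h and at 1 h of exposure. The aim was to describe how their mRNA levels differed after a day of intended food perception without feeding. The comparison rests on the 8 libraries, of 24 in the series, that the labels give as ivermectin with food, 4 at 24 h (IvF 24 h) and 4 at 1 h (IvF 1 h). Of 44968 genes in the count tables, 17192 were above 1 CPM (the read count scaled to the library's total on genes) in at least 4 of these 8 libraries and were tested. All larvae were first-stage (L1) Caenorhabditis elegans of strain LRB269 that hatched without food.

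LRB269 carries mutations of avr-14, glc-3, avr-15 and also glc-1, which encode glutamate-gated chloride channels opened by ivermectin, and a transgene that expresses avr-15 from the myo-2 promoter of pharyngeal muscle, so that the drug acts on the feeding organ. The IvF larvae were kept in ivermectin at 5 ng/mL, received Escherichia coli HB101 at 25 mg/mL, and were collected 48 h (IvF 24 h) or 25 h (IvF 1 h) after bleaching. For this strain the paper elsewhere gives a higher concentration, described as the minimal one that stopped eating as judged by growth. No measure of ingestion is given for the cultures sequenced, and food is called uneaten below by design. Larvae with the same drug and no bacteria (IvS) were collected at the same 24 h and 1 h, and fed (F) and starved (S) larvae without ivermectin at 1 h only. Age and time with food therefore increase together in IvF, and the change over the same interval in IvS is given beside that of IvF. The same transgenic strain was used in every group, and the pharynx carries the only intended ivermectin-sensitive channel. Each library was made from RNA of whole larvae, in which fewer cells of a type and less RNA per cell cannot be told apart.

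In C. elegans, insulin-like peptides released by sensory neurons and intestine bind the receptor DAF-2, which acts through the adaptor IST-1 and the kinases PDK-1 and AKT-1 to keep the transcription factor DAF-16 (FOXO) out of the nucleus. L1 larvae that hatch without food stop developing and depend on DAF-16 to survive. When they eat, insulin signalling rises and ribosome production, DNA replication and growth begin, while genes of fasting and stress resistance are turned down.

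The IvF libraries held 17186860 to 19349183 reads on genes at 24 h and 16413695 to 19448998 at 1 h. The libraries of one condition carry 4 numbers in the labels, shared between conditions and called A to D here. At 1 h the IvF libraries stood apart from each other: among 9521 genes that averaged 10 CPM or more in an ivermectin condition, 62 spanned more than a 4-fold range among the libraries of IvF 24 h and 231 among those of IvF 1 h, against 120 in IvS 24 h and 31 in IvS 1 h. Of the 8 IvF libraries, IvF 1 h library A had the lowest TMM scaling factor (0.864) and IvF 24 h library D the highest (1.21). These libraries are named wherever a result rested on them. Summed markers of pharynx (2301 to 4470 CPM at IvF 24 h, against 5091 to 6460 at IvF 1 h), body wall muscle (3962 to 5329 against 6469 to 8728) and intestine (663 to 907 against 1766 to 2563) were lower at 24 h, the sum of neuronal markers was higher (4004 to 4541 against 2852 to 3351), and the sum of hypodermis markers overlapped (116 to 128 against 111 to 131). In IvS the sums moved the same way, with 2489 to 3278 CPM at 24 h against 5157 to 6590 at 1 h for pharynx. They were 4328 to 5560 against 6576 to 9912 for body wall muscle, and 655 to 792 against 1616 to 2624 for intestine. For neurons they were 3991 to 4640 against 3331 to 3809. Gene by gene in IvF, 1 of 6 pharyngeal markers was called lower and 0 higher, 2 of 4 body wall muscle markers were lower and 1 was higher, and 3 of 6 intestinal markers were lower and 1 was higher. Of 8 neuronal markers 0 were called, 5 had a negative log2 fold change and the median was -0.10. The sum is made mostly of egl-3 and egl-21, neuropeptide-processing enzymes at means of 1966 and 1511 CPM at IvF 24 h and 1250.1 and 1059 CPM at IvF 1 h. The part of these markers in the results was not tested.

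Among the genes altered in the strain, avr-15 was at 998, 586, 685 and 334 CPM at IvF 24 h, against 1245, 1096, 1101 and 1025 CPM at IvF 1 h, and reads from the transgene and the locus are counted together. All libraries at 24 h were below all at 1 h, yet the difference did not pass the test (log2 fold change -0.75 ± 0.34 SE, adjusted p = 0.195). In IvS, avr-15 fell by 1.60 on the log2 scale (adjusted p = 0.0013). myo-2, whose promoter drives the transgene, was at 2167, 1376, 2352 and 1186 CPM at IvF 24 h and 3099, 3095, 3527 and 2693 CPM at IvF 1 h, with no overlap. Its log2 fold change was -0.79 ± 0.29 (adjusted p = 0.0939, and 0.00138 with the replicate number as a block). glc-1 rose by 1.53 ± 0.18 on the log2 scale (adjusted p = 0.000433), avr-14 differed by -0.14 ± 0.13 (adjusted p = 0.589), and glc-3 did not pass the expression filter.

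After 24 h with uneaten food, 1082 genes were higher and 1048 were lower than at 1 h (edgeR quasi-likelihood test; called where the adjusted p was below 0.05 and the log2 fold change above 0.5 in size), which is 6.29% and 6.1% of the genes tested. Over all genes tested, the log2 fold change had a median of 0.01. Without IvF 24 h library B, 713 were higher, and without both IvF 1 h library A and IvF 24 h library D, 2049 were. Large changes were more often falls: 160 genes fell by more than 2 on the log2 scale and 74 rose by more than 2. The same held in IvS, where 74 fell and 40 rose by more than 2. Some of the largest falls in IvF rested on uneven levels at IvF 1 h, as given below. Without food over the same interval, 781 genes were higher at IvS 24 h (4.54%) and 914 were lower (5.32%), and the higher count was 383 to 425 without IvS 1 h library B, C or D and 1182 without IvS 24 h library C. Of the genes higher in IvF, 348 were also higher in IvS, 32.2% of the IvF list and 44.6% of the IvS list. Of those lower in IvF, 511 were also lower in IvS, 48.8% and 55.9% of the lists. Opposite calls were few: 15 genes were higher in IvF and lower in IvS, and 5 were lower in IvF and higher in IvS.

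The change over time differed between IvF and IvS for 367 genes, tested as an interaction in a fit of all 16 ivermectin libraries. It was more positive in IvF for 213 genes (1.24% of those tested) and more negative for 154 (0.896%). Without IvF 24 h library D the first count was 335. The second was 81 to 97 without any 1 library of IvS 1 h, IvS 24 h library D or IvF 24 h library C, and 250 without IvF 1 h library C. Over all genes tested, 34.6% of the variance among IvF libraries, and 34.8% of that among IvS libraries, lay between the times. Scores on the first principal component of the 16 libraries (41.1% of the variance) overlapped, with -45.9 to 30.1 at IvF 24 h and -66.8 to 11.7 at IvF 1 h. On the second (21.5%) they did not, with 8.38 to 46.8 and -58 to -14.4. Of aligned reads, 5.3 to 11.3% at IvF 24 h and 4.46 to 9.52% at IvF 1 h lay outside genes, most in library D at both times. The part of this share in the components was not tested.

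F and S larvae, which share no library with IvF, give the response to eaten food after 1 h: 2290 of the 17192 genes were higher in F than in S (13.3%) and 1987 were lower (11.6%). Without S library D (number 4 in the labels) the counts were 2691 and 2295. It was at 53.3 CPM of icl-1, against 754 to 905 CPM in the other S libraries. F and S libraries held 8690378 to 14139935 reads on genes. Of their aligned reads 6.59 to 10.2% were shared by genes, against 2.97 to 3.67% in IvF. The part of these differences was not tested. Genes that were higher at IvF 24 h than at IvF 1 h were often lower in F than in S. Such a call can come from the level at either time, and the same shares were not examined for genes called in IvS. Of the 1082 genes higher at IvF 24 h, 507 (46.9%) were lower in F than in S and 23 (2.13%) were higher. Of the 1048 lower at IvF 24 h, 365 (34.8%) were higher in F and 49 (4.68%) were lower. For genes called in the interaction as well the shares were larger. Of the 176 genes that were higher at IvF 24 h and had a more positive change than in IvS, 134 (76.1%) were lower in F than in S and 5 (2.84%) were higher, with a median log2 fold change of -1.75 in F over S. Of the 114 that were lower at IvF 24 h with a more negative change than in IvS, 82 (71.9%) were higher in F and 0 were lower, with a median of 1.77.

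**Figure D1:**
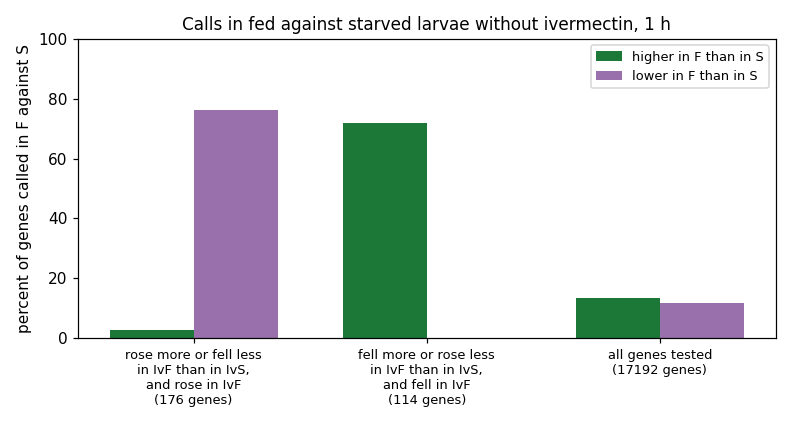
Percent of genes called higher (green) or lower (purple) in F than in S at 1 h (vertical axis, from 0 to 100%), for the 176 genes that were higher at IvF 24 h with a more positive change than in IvS, the 114 genes that were lower with a more negative change, and all 17192 genes tested. The first set is mostly lower in F (76.1%), the second mostly higher in F (71.9%), and all genes are at 13.3% higher and 11.6% lower.

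Several transcripts of the insulin pathway, from receptor to kinases, rose over the day with uneaten food. Of the 11 genes of insulin signalling tested, 4 were higher at IvF 24 h and 0 were lower, with a median log2 fold change of 0.42, and 0 were called in IvS, with a median of 0.09. In F against S, 1 was higher and 5 were lower. The counts of this and later lists stand beside shares over all genes tested of 6.29% higher and 6.1% lower in IvF. These shares were 4.54% and 5.32% in IvS, and 13.3% and 11.6% in F against S.

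akt-1, the AKT kinase that phosphorylates DAF-16, was at 281, 304, 255 and 280 CPM at IvF 24 h, against 76.8, 132, 124 and 122 CPM at IvF 1 h. The groups were far apart, and library A was the lowest at 1 h. akt-1 rose by 1.32 ± 0.15 on the log2 scale (adjusted p = 0.000425). In IvS it was at 212 to 300 CPM at 24 h and 278 to 287 CPM at 1 h, so that only the libraries of IvF 1 h lay below the others, and the change differed between IvF and IvS by 1.28 (adjusted p = 0.00305). In F it was 2.12 lower than in S on the log2 scale (adjusted p = 3.9e-05). akt-1, pdk-1 and aakg-4 share exon sequence with another gene in the annotation, and the libraries are not stranded, so their reads can include those of the neighbour.

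ist-1, an insulin receptor substrate, followed the same pattern. It was at 116, 106, 108 and 122 CPM at IvF 24 h and 30.6, 54.6, 54.3 and 47.9 CPM at IvF 1 h, with no overlap. It rose by 1.28 ± 0.15 on the log2 scale (adjusted p = 0.000384), and the change differed from that of IvS by 1.1 (adjusted p = 0.00374). pdk-1, the kinase that activates AKT, was at 62.0, 58.9, 52.8 and 71.9 CPM at IvF 24 h and 27, 38.3, 39.4 and 39.8 CPM at IvF 1 h. Its levels did not overlap either, and it rose by 0.76 ± 0.11 (adjusted p = 0.00143; difference from IvS 0.99, adjusted p = 0.00275). daf-2, the receptor itself, was at 453, 407, 394 and 381 CPM at IvF 24 h against 172, 284, 239 and 238 CPM at IvF 1 h. All libraries at 24 h were above all at 1 h, and daf-2 rose by 0.83 ± 0.17 (adjusted p = 0.00876), but its difference from IvS missed the threshold (0.70, adjusted p = 0.121). daf-16 (exon overlap), the transcription factor that the pathway restrains, was at 334 to 416 CPM at IvF 24 h and 310 to 387 CPM at IvF 1 h, a log2 fold change of 0.10 ± 0.16 (adjusted p = 0.817).

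Of 25 insulin-like peptide genes tested, of 39 annotated, 3 were higher at IvF 24 h (ins-24, ins-30 and ins-29) and 2 were lower (daf-28 and ins-6), with a median log2 fold change of 0.21; with the replicate block, and without IvF 1 h library A, 5 were higher. daf-28, a neuronal agonist of DAF-2 that promotes development, was at 23.2, 29.6, 28.1 and 24.9 CPM at IvF 24 h and 57.9, 47.1, 40.7 and 41.9 CPM at IvF 1 h. It was lower in every library at 24 h, and fell by 0.85 on the log2 scale (SE 0.19, adjusted p = 0.0154). In IvS daf-28 was at 26.4 to 32.8 CPM at 24 h and 19.8 to 24.4 CPM at 1 h, so the direction was opposite (0.49, adjusted p = 0.0085, under the fold threshold), and the changes differed by -1.38 (adjusted p = 0.00327). daf-28 was 1.46 higher on the log2 scale in F than in S (adjusted p = 0.0037).

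ins-6, another agonist that acts with daf-28 in dauer formation, was low throughout: 1.60, 2.09, 1.92 and 1.75 CPM at IvF 24 h and 5.35, 5.31, 5.35 and 5.00 CPM at IvF 1 h. The groups did not overlap, and ins-6 fell by 1.52 on the log2 scale (SE 0.23, adjusted p = 0.00181). Its difference from IvS was not called (-0.46, adjusted p = 0.856). ins-24 was at 25.3, 31.0, 30.3 and 33.4 CPM at IvF 24 h and 9.92, 9.67, 9.81 and 11.6 CPM at IvF 1 h, with no overlap. It rose by 1.54 ± 0.11 (adjusted p = 2.91e-05), and the change differed from IvS by 1.15 (adjusted p = 0.000567). ins-30 was at 62.2 to 83.3 CPM at IvF 24 h and 26 to 31.8 CPM at IvF 1 h, and rose by 1.26 ± 0.18 (adjusted p = 0.00133; difference from IvS 0.87, adjusted p = 0.0636, and 0.0253 with the block). ins-29 was near the threshold at 3.36 to 4.18 CPM, against 1.75 to 2.52 CPM at IvF 1 h (0.84 ± 0.25, adjusted p = 0.0434). Leaving out any of 7 libraries, all except IvF 24 h library D, ended its call, with an adjusted p of up to 0.11.

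**Figure D2:**
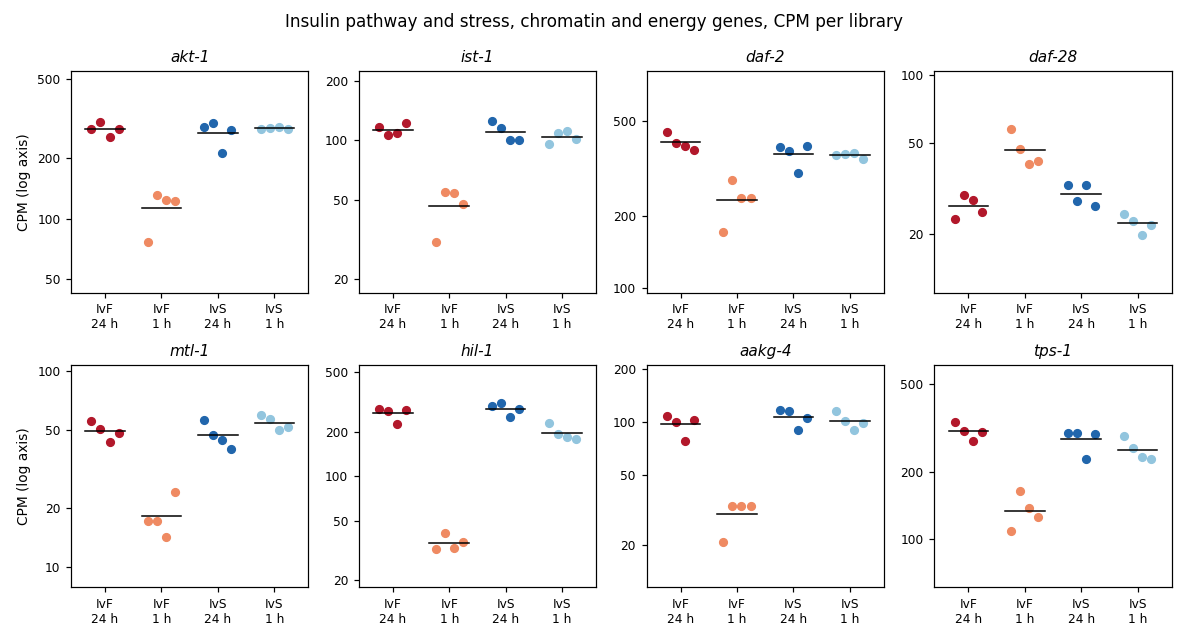
CPM per library (vertical log axes) of 8 genes at IvF 24 h, IvF 1 h, IvS 24 h and IvS 1 h, 4 libraries each, with the mean as a line. For akt-1, ist-1, daf-2, mtl-1, hil-1, aakg-4 and tps-1 the points of IvF 1 h lie below those of the other 3 conditions, as for hil-1 with 32.3 to 41.4 CPM, and for daf-28 they lie above, with 40.7 to 57.9 CPM.

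Single genes of other lists shared this pattern. hil-1, a linker histone that is abundant in starved larvae, was at 282, 273, 225 and 281 CPM at IvF 24 h, against 32.3, 41.4, 32.7 and 36.1 CPM at IvF 1 h. The groups stood far apart, and hil-1 rose by 2.89 ± 0.15 on the log2 scale (adjusted p = 9.64e-06). It also rose in IvS, to 250 to 312 CPM at 24 h against 178 to 227 CPM at 1 h (0.61, adjusted p = 0.012), and the difference of the changes was 2.24 (adjusted p = 1.92e-05). hil-1 was 5.32 lower on the log2 scale in F than in S (adjusted p = 2.7e-05). Of 7 linker histone genes tested, hil-1 alone was called higher and 0 were lower.

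mtl-1, a metallothionein and known DAF-16 target, was at 55.6, 50.4, 43.7 and 48.3 CPM at IvF 24 h and 17.2, 17.1, 14.2 and 24.0 CPM at IvF 1 h. Again there was no overlap, and mtl-1 rose by 1.46 ± 0.18 (adjusted p = 0.000501; difference from IvS 1.57, adjusted p = 0.000749). Of the 10 superoxide dismutase, catalase and metallothionein genes, only mtl-1 and mtl-2 were higher, 0 were lower, and the median log2 fold change was -0.20. mtl-2 was at 7.07 to 8.90 CPM, against 3.01 to 5.97 CPM at IvF 1 h (0.96 ± 0.23, adjusted p = 0.0188), a call that ended without library B of either time (adjusted p up to 0.065). The difference of mtl-2 from IvS was not called (1.27, adjusted p = 0.09).

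aakg-4, a regulatory gamma subunit of the energy sensor AMPK, was at 108, 100, 77.9 and 103 CPM at IvF 24 h and 20.8, 33.3, 33.4 and 33.3 CPM at IvF 1 h. It was higher in every library at 24 h and rose by 1.70 ± 0.15 (adjusted p = 9.36e-05; difference from IvS 1.52, adjusted p = 0.000687). In all, 4 of 20 AMPK and TOR genes were higher and 2 were lower, with a median of 0.24, and without IvF 1 h library D or IvF 24 h library B, 2 were higher. tps-1 and tps-2 (exon overlap), the trehalose-6-phosphate synthases that make the storage sugar trehalose, rose as well, within a list of 16 genes of the glyoxylate shunt, gluconeogenesis and trehalose of which 3 were higher and 3 were lower, with a median of -0.20. With the block 5 of this list were lower, and without IvF 1 h library A, 6. tps-1 was at 339, 306, 278 and 304 CPM at IvF 24 h and 109, 164, 137 and 126 CPM at IvF 1 h, and tps-2 at 241 to 289 and 124 to 149 CPM. They rose by 1.2 ± 0.16 (adjusted p = 0.000802) and 0.97 ± 0.14 (adjusted p = 0.00161), without overlap. The difference from IvS was 0.93 for tps-1 (adjusted p = 0.0367, and up to 0.086 with a library left out). For tps-2 it was 0.70 and was not called (adjusted p = 0.0854). tts-1, a long noncoding RNA that is abundant in dormant and long-lived animals and known to lower ribosome levels, was at 4656, 4619, 3795 and 3750 CPM at IvF 24 h and 1902, 2074, 1752 and 1799 CPM at IvF 1 h. It rose by 1.16 ± 0.20 (adjusted p = 0.00388). The difference of tts-1 from IvS was 0.99 (adjusted p = 0.0297, and up to 0.073 with a library left out).

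Some of the largest falls were in enzymes of detoxification and fat breakdown, and they rested on levels at 1 h that varied widely between libraries. fmo-5, a flavin-containing monooxygenase, was at 34, 34.8, 37.2 and 32.3 CPM at IvF 24 h, against 2309, 169, 115 and 5758 CPM at IvF 1 h. Libraries A and D were high at 1 h, B and C were much lower, and all 4 were above every library at 24 h. fmo-5 fell by 5.9 on the log2 scale (SE 1.31, adjusted p = 0.0211), and the change differed from that of IvS by -5.57 (adjusted p = 0.0227, and 0.0749 with the block), where the gene was at 20.3 to 26.4 CPM at 24 h and 25.8 to 40.7 CPM at 1 h. dhs-19, a short-chain dehydrogenase of lipid droplets, was at 83.6, 97.8, 79.8 and 48.4 CPM at IvF 24 h and 2228, 302, 221 and 2435 CPM at IvF 1 h. A and D were again the high libraries, and dhs-19 fell by 4.08 (SE 0.90, adjusted p = 0.0204).

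ugt-37 (exon overlap), a UDP-glucuronosyltransferase, which joins a sugar acid to toxins for export, was at 8.03 to 10.2 CPM at IvF 24 h and 587, 76.4, 48.1 and 839 CPM at IvF 1 h, again highest in A and D. It fell by 5.47 (SE 1.01, adjusted p = 0.0100). ugt-16, of the same family, was at 42.3 to 63.3 CPM at IvF 24 h and 397, 173, 121 and 559 CPM at IvF 1 h, and fell by 2.65 (SE 0.48, adjusted p = 0.00819). In IvS ugt-16 did not exceed 6.55 CPM in any library. With the replicate block, none of these 4 calls held, with an adjusted p of 0.212 for fmo-5, 0.185 for dhs-19, 0.108 for ugt-37 and 0.103 for ugt-16. The calls of fmo-5 and dhs-19 were also lost without IvF 1 h library D or without any 1 library of IvF 24 h (adjusted p up to 0.068 and 0.066), and those of all 4 genes without both IvF 1 h library A and IvF 24 h library D (adjusted p of 0.0635 for ugt-16, 0.0761 for ugt-37, 0.106 for dhs-19 and 0.115 for fmo-5).

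**Figure D3:**
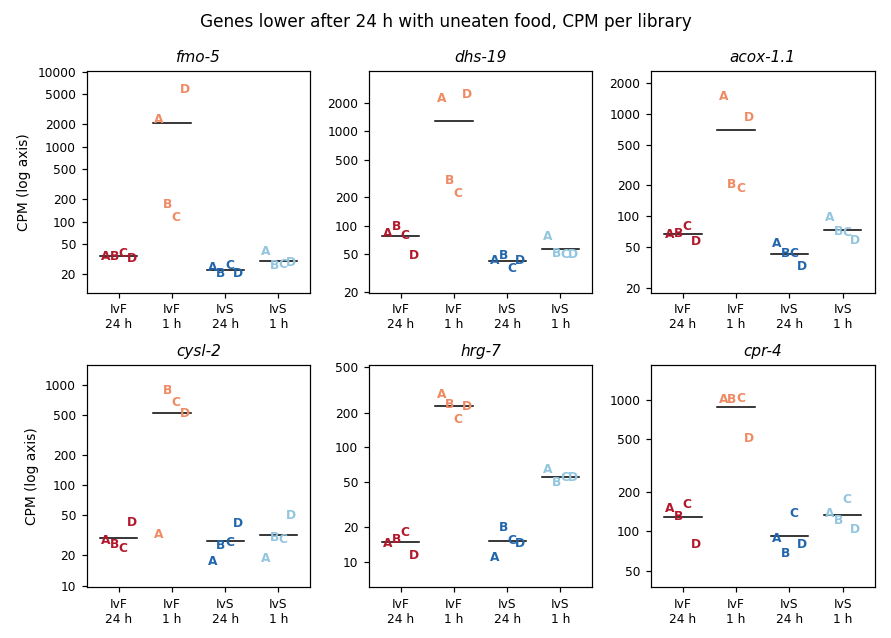
CPM per library (vertical log axes) of 6 genes that fell, at IvF 24 h, IvF 1 h, IvS 24 h and IvS 1 h, with letters for the libraries and a line for the mean. fmo-5, dhs-19 and acox-1.1 were highest at IvF 1 h in A and D, cysl-2 was high there in B, C and D and low in A with 32.3 CPM, and hrg-7 and cpr-4 were high in all 4 libraries of IvF 1 h.

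Fatty acid β-oxidation, which shortens fatty acids for energy in mitochondria and peroxisomes, showed the same unevenness. Of 37 genes tested, 8 were lower at IvF 24 h and 2 were higher, with a median log2 fold change of -0.67, against 3 lower and 0 higher in IvS, with a median of -0.25. In F against S, 12 were higher and 1 was lower. acox-1.1, a peroxisomal acyl-CoA oxidase, was at 66.5, 67.6, 78.7 and 56.8 CPM at IvF 24 h and 1457, 205, 187 and 923 CPM at IvF 1 h, and fell by 3.42 (SE 0.75, adjusted p = 0.0203). cpt-1, a carnitine palmitoyltransferase that brings fatty acids into mitochondria, was at 289, 285, 272 and 262 CPM at IvF 24 h and 2235, 597, 578 and 826 CPM at IvF 1 h. Library A was far above the others at 1 h, and cpt-1 fell by 2.01 (SE 0.50, adjusted p = 0.0288). acdh-7, an acyl-CoA dehydrogenase, was at 50.8 to 66.6 CPM at IvF 24 h and 1138, 162, 129 and 307 CPM at IvF 1 h, and fell by 2.95 (SE 0.77, adjusted p = 0.0391). The difference from IvS was not called for acox-1.1, cpt-1 or acdh-7 (adjusted p = 0.0803, 0.104 and 0.0626). acox-1.1 also fell in IvS, by 0.71 (adjusted p = 0.0262).

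With the replicate block the calls of acox-1.1, cpt-1 and acdh-7 were lost (adjusted p = 0.148, 0.101 and 0.146), and 2 β-oxidation genes were lower. The count of lower genes was also 2 without IvF 1 h library D, or IvF 24 h library A, B or D, and 4 without IvF 24 h library C. These libraries also ended the calls of the 3 genes, except that acox-1.1 kept its call without IvF 24 h library C. The other lower members were cpt-5, acdh-10 and acox-1.2, which were also high at 1 h in A and D or in A alone, and acox-1.5 and ech-9, which were not. acox-1.5, a further acyl-CoA oxidase, was at 24.3, 34, 30.5 and 28.5 CPM at IvF 24 h and 64.2, 62.1, 63.0 and 74.4 CPM at IvF 1 h, and fell by 1.17 (SE 0.14, adjusted p = 0.000484). ech-9 (exon overlap), an enoyl-CoA hydratase, was at 2.58, 2.79, 3.07 and 4.52 CPM at IvF 24 h and 12.4, 17.6, 14.9 and 12.25 CPM at IvF 1 h, and fell by 2.17 (SE 0.17, adjusted p = 4.07e-05). For both genes the 4 libraries at 1 h lay close together and above all at 24 h.

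The 2 β-oxidation genes that rose, named after their values were seen as were ech-9, ins-29, mtl-2 and lipl-4, were ech-7 and hacd-1, a hydratase and a hydroxyacyl-CoA dehydrogenase. hacd-1 was at 365, 338, 307 and 321 CPM at IvF 24 h and 59.7, 149, 146 and 66.2 CPM at IvF 1 h, where A and D were the low libraries. It rose by 1.68 ± 0.30 (adjusted p = 0.00475), and in IvS it was at 365 to 406 CPM at 24 h and 287 to 458 CPM at 1 h. ech-7 was at 98.4 to 137 CPM at IvF 24 h and 34.2 to 49.7 CPM at IvF 1 h, and rose by 1.44 ± 0.17 (adjusted p = 0.000406). fasn-1, the fatty acid synthase, was at 333, 399, 419 and 334 CPM at IvF 24 h and 672, 659, 724 and 525 CPM at IvF 1 h. It fell by 0.80 (SE 0.19, adjusted p = 0.0185), with a difference from IvS of -0.68 that was not called (adjusted p = 0.162). The call in IvF ended without IvF 24 h library A (adjusted p = 0.052). Of 18 fatty acid synthesis genes 1 was lower and 1 was higher. The higher count was 3 with the block, 5 without IvF 1 h library A, 7 without both that library and IvF 24 h library D, and 0 without any other library but IvF 24 h library D.

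Some enzymes that handle hydrogen sulfide fell too, in a different set of libraries. Of 15 hydrogen sulfide and hypoxia genes, 5 were lower at IvF 24 h and 0 were higher, with a median log2 fold change of -0.50, against 3 lower and 1 higher in IvS, with a median of -0.20. cysl-2 (exon overlap), a cyanoalanine synthase, was at 28.3, 25.9, 23.1 and 42.1 CPM at IvF 24 h, against 32.3, 869, 670 and 520 CPM at IvF 1 h. Library A at 1 h lay within the range of IvF 24 h and the other 3 were far above it. In the fit cysl-2 fell by 4.11 on the log2 scale (SE 0.80, adjusted p = 0.0127).

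sqrd-1, the sulfide:quinone oxidoreductase that oxidizes sulfide in mitochondria, was at 16.23, 15.3, 12.07 and 18 CPM at IvF 24 h and 11.9, 212, 142 and 92 CPM at IvF 1 h. rhy-1, a regulator of the hypoxia factor HIF-1, was at 12.09, 11.9, 11.3 and 20.3 CPM at IvF 24 h and 13.3, 43.9, 33.8 and 57.1 CPM at IvF 1 h. Both share exon sequence with another gene, and in both library A at 1 h overlapped the 24 h libraries while B, C and D were above them. They fell by 2.86 (SE 0.68, adjusted p = 0.0281) and 1.41 (SE 0.33, adjusted p = 0.0207). Their differences from IvS were not called (adjusted p = 0.187 and 0.191), and sqrd-1 also fell in IvS, by 0.79 (adjusted p = 0.028). With the block the adjusted p in IvF was 0.143 for cysl-2, 0.193 for sqrd-1 and 0.0575 for rhy-1, and 2 genes of the list were lower. Without IvF 24 h library A, B or C, 3 were lower. The call of sqrd-1 was lost without any of 6 libraries, all but A and B of IvF 1 h (adjusted p up to 0.077), and that of rhy-1 without IvF 1 h library B or IvF 24 h library A, B or C (up to 0.069).

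cth-2 (exon overlap), a cystathionine γ-lyase of the same list, was more even, with 50.3, 84.7, 74.8 and 59.3 CPM at IvF 24 h and 164, 225, 222 and 182 CPM at IvF 1 h. It fell by 1.56 (SE 0.19, adjusted p = 0.000555), and it fell in IvS by 1.22 (adjusted p = 0.017). gst-19, a glutathione S-transferase, was at 0.879, 1.11, 1.54 and 3.9 CPM at IvF 24 h and 4.88, 43.1, 39.7 and 22.1 CPM at IvF 1 h, where A was the lowest. It fell by 3.91 (SE 0.68, adjusted p = 0.00786) in IvF and by 2.01 (adjusted p = 0.0059) in IvS.

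The larger detoxification families did not move as 1 block. Of 44 glutathione S-transferase genes, 17 were lower at IvF 24 h and 3 were higher, with a median of -0.86, and 11 were lower without IvF 24 h library A, B or C. In IvS 10 were lower and 2 were higher, with a median of -0.41. gst-35 was at 2.53, 4.25, 5.87 and 4.35 CPM at IvF 24 h and 38.5, 29.9, 25.0 and 25.3 CPM at IvF 1 h, and fell by 2.84 (SE 0.28, adjusted p = 0.000204), without overlap. Of 67 UDP-glucuronosyltransferase genes 19 were lower and 7 were higher, with a median of -0.20, and in IvS 8 were lower and 5 were higher, with a median of 0.09. Of 74 cytochrome P450 genes 11 were higher (14.9%) and 8 were lower (10.8%), against 6.29% and 6.1% of all genes tested. The lower count was 1 without IvF 1 h library A, or IvF 24 h library A or C, and 2 without IvF 24 h library B. It was 3 without IvF 1 h library D and 5 without IvF 24 h library D. cyp-13A5 was at 91.3, 211, 149 and 112 CPM at IvF 24 h and 23.4, 15.7, 10.5 and 27.4 CPM at IvF 1 h, and rose by 2.86 ± 0.39 (adjusted p = 0.00171, and 0.0556 with the block), with a rise of 1.79 in IvS (adjusted p = 0.0067).

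fmo-2, a monooxygenase linked to fasting, was among the rises: 68.4, 55.9, 71.6 and 38.4 CPM at IvF 24 h and 5.6, 19.8, 28.7 and 21.3 CPM at IvF 1 h. Its levels did not overlap, and the log2 fold change was 1.71 ± 0.43 (adjusted p = 0.0312). The call was lost with the block (adjusted p = 0.143) and without IvF 1 h library B or D or IvF 24 h library A, B or C (adjusted p up to 0.092).

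Several proteases, a lysozyme and a lectin fell with less spread among libraries. hrg-7 (exon overlap), a secreted protein of the aspartic protease family that carries a heme signal from intestine to neurons, was at 14.5, 15.7, 18.1 and 11.5 CPM at IvF 24 h, against 290, 235, 174 and 226 CPM at IvF 1 h. The groups were an order of magnitude apart, and hrg-7 fell by 3.96 (SE 0.28, adjusted p = 2.73e-05). It fell by 1.8 in IvS (adjusted p = 0.0003), where it reached 49.0 to 64.3 CPM at 1 h, and the changes differed by -2.20 (adjusted p = 0.00196). cpr-4 (exon overlap), a cathepsin B-like protease, was at 149, 131, 159 and 79.0 CPM at IvF 24 h and 1001, 1002, 1023 and 504 CPM at IvF 1 h. Library D was the lowest at both times. cpr-4 fell by 2.76 (SE 0.35, adjusted p = 0.000929), while it was at 67.8 to 135 CPM at IvS 24 h and 103 to 175 CPM at IvS 1 h (difference of changes -2.31, adjusted p = 0.00872).

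Of 25 cathepsin-type proteases tested, 11 were lower at IvF 24 h and 3 were higher (5 without IvF 1 h library A), with a median of -0.42, and in IvS 9 were lower and 5 were higher, with a median of -0.49. asp-1, an intestinal aspartic protease, was at 987, 444, 824 and 469 CPM at IvF 24 h and 1675, 3010, 2835 and 2408 CPM at IvF 1 h, and fell by 1.82 (SE 0.33, adjusted p = 0.00467, and 0.0521 with the block). It fell by 2.67 in IvS (adjusted p = 0.00017). lys-1, a lysozyme that digests bacterial walls, was at 56.3, 104, 89.7 and 80.9 CPM at IvF 24 h and 393, 417, 299 and 300.1 CPM at IvF 1 h. It fell by 2.12 (SE 0.23, adjusted p = 0.000286), and the change differed from IvS by -1.73 (adjusted p = 0.0184, and 0.0616 without both IvF 1 h library A and IvF 24 h library D). clec-4, a C-type lectin, was at 2.53, 4.54, 5.49 and 8.93 CPM at IvF 24 h and 33.3, 57.8, 46.4 and 44.0 CPM at IvF 1 h, and fell by 3.12 (SE 0.26, adjusted p = 7.8e-05; difference from IvS -2.11, adjusted p = 0.0108). Of 177 C-type lectins tested, 22 were lower and 5 were higher, with a median of -0.33, and with the block 39 were lower and 8 higher.

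The summed intestinal markers were lower beside these genes, as given above. Of these markers act-5, ifb-2 and vha-6, named after their values were seen, fell by 2.02, 1.64 and 1.51 on the log2 scale, ges-1 rose by 0.80, and the regulators elt-2 and elt-7 were not called. The part of these markers in the falls was not tested.

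mxl-3, a transcription factor that represses lysosomal lipase genes in fed animals, was at 114, 95.4, 93.3 and 72.4 CPM at IvF 24 h, against 368, 313, 282 and 180 CPM at IvF 1 h. All libraries at 24 h were lower, and mxl-3 fell by 1.62 (SE 0.29, adjusted p = 0.00554). At IvS 24 h it was at 92.8 to 139 CPM and at IvS 1 h at 79.9 to 124 CPM, and the changes differed by -1.75 (adjusted p = 0.0177). Of 12 genes of lipases and lysosomal fat use, 2 were higher, lipl-4 and lipl-7, and 2 were lower, or 4 without IvF 1 h library A. lipl-4 (exon overlap), a lysosomal acid lipase, was at 5.48, 6.23, 4.77 and 8.59 CPM at IvF 24 h and 2.93, 2.05, 2.39 and 2.62 CPM at IvF 1 h, and rose by 1.28 ± 0.23 (adjusted p = 0.00421). It rose by 1.13 in IvS too (adjusted p = 0.024). lipl-7 was at 32.0 to 44.6 CPM at IvF 24 h and 21.4 to 24.7 CPM at IvF 1 h, a rise of 0.72 ± 0.17 (adjusted p = 0.0184) that was lost without library B of either time (adjusted p up to 0.057).

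Some genes of the methionine cycle, which makes the methyl donor S-adenosylmethionine, fell as well. Of 13 genes of the methionine cycle and phosphocholine synthesis, 5 were lower at IvF 24 h and 1 was higher, with a median of -0.45. In IvS 2 were higher and 0 were lower, with a median of 0.00, and in IvF 2 were lower without IvF 1 h library B and 3 without IvF 24 h library A. sams-1, the S-adenosylmethionine synthetase, was at 547, 541, 637 and 446 CPM at IvF 24 h and 1431, 1529, 1231 and 1061 CPM at IvF 1 h, with no overlap. It fell by 1.28 (SE 0.23, adjusted p = 0.00424). metr-1, the methionine synthase, was at 625, 744, 685 and 552 CPM at IvF 24 h and 1290, 1355, 1181 and 984 CPM at IvF 1 h. It fell by 0.89 (SE 0.21, adjusted p = 0.0176), a call lost without IvF 1 h library B (adjusted p = 0.052).

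The gene of this list that rose was pmt-1, which methylates phosphoethanolamine on the way to phosphatidylcholine, with 1421, 2181, 1661 and 1837 CPM at IvF 24 h and 1149, 818, 674 and 553 CPM at IvF 1 h. It rose by 1.1 ± 0.28 (adjusted p = 0.0251), also in IvS (1.3, adjusted p = 0.0054), and the call in IvF was lost without IvF 1 h library B or C or IvF 24 h library B (adjusted p up to 0.079). dhs-8, a short-chain dehydrogenase, and nhr-11, a nuclear hormone receptor, fell from uneven levels yet kept their calls with the block. dhs-8 was at 5.74, 3.14, 4.83 and 6.61 CPM at IvF 24 h and 113, 35.1, 26.9 and 78.7 CPM at IvF 1 h (-3.71 ± 0.55, adjusted p = 0.00346, and 0.0118 with the block). nhr-11 was at 10.9 to 20.7 CPM at IvF 24 h and 33 to 99.1 CPM at IvF 1 h (-2.31 ± 0.39, adjusted p = 0.00534).

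Another set of genes was high at IvF 24 h and low in the 3 other ivermectin conditions. lbp-8, a fatty acid-binding protein that carries lipid signals from lysosome to nucleus, was at 12, 29.2, 13.1 and 28.7 CPM at IvF 24 h, against 1.49, 0.368, 0.363 and 0.792 CPM at IvF 1 h. In IvS it did not exceed 1.27 CPM in any library. lbp-8 rose by 4.71 ± 0.50 (adjusted p = 0.000484), and the change differed from IvS by 4.67 (adjusted p = 0.00112). pho-14, a predicted acid phosphatase, was at 270, 221, 222 and 231 CPM at IvF 24 h and 11.1, 7.41, 8.61 and 15.4 CPM at IvF 1 h. Its IvS libraries were at 7.14 to 16.16 CPM at 24 h and 5.87 to 9.15 CPM at 1 h, and pho-14 rose by 4.48 ± 0.25 (adjusted p = 1.09e-05; difference from IvS 3.76, adjusted p = 2.97e-05).

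nhr-232 (exon overlap), a nuclear hormone receptor, was at 78.6, 96.8, 78.7 and 72.0 CPM at IvF 24 h and 9.10, 9.72, 9.50 and 16.21 CPM at IvF 1 h, and rose by 2.89 ± 0.20 (adjusted p = 2.42e-05; difference from IvS 2.76, adjusted p = 6.1e-05). In IvS nhr-232 was at 11.3 to 20.6 CPM over both times. clec-76, a C-type lectin, was at 68.8, 76.6, 52.5 and 52.0 CPM at IvF 24 h and 13.1, 10.9, 13.6 and 18.3 CPM at IvF 1 h. It moved in opposite directions: it rose by 2.18 ± 0.21 in IvF (adjusted p = 0.000158) and fell by 1.68 in IvS (adjusted p = 9.4e-05), to 5.64 to 8.69 CPM at 24 h, against 22.4 to 26.8 CPM at 1 h. The changes of clec-76 differed by 3.83 (adjusted p = 6.32e-07).

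cyp-33B1, a cytochrome P450, stdh-2, a predicted steroid dehydrogenase, and the unnamed genes C06E4.3 (exon overlap) and C06E4.6 had the same pattern. At IvF 24 h they were at 22.1 to 33.3, 12.07 to 17.7, 23.6 to 40.8 and 23.4 to 41.4 CPM, and no library of IvF 1 h or IvS exceeded 5 CPM for any of them. They rose by 3.39 ± 0.18 (adjusted p = 9.76e-06), 3.02 ± 0.24 (4.06e-05), 3.46 ± 0.29 (9.5e-05) and 3.19 ± 0.29 (0.000114), and the differences from IvS were 2.92, 2.93, 3.79 and 3.80, with adjusted p of 4.39e-05, 0.000259, 4.39e-05 and 0.000297. In F against S at 1 h the log2 fold change of lbp-8 was 0.21 and that of cyp-33B1 0.36 (adjusted p = 0.84 and 0.69), pho-14 was 1.2 higher in F (adjusted p = 0.028) and nhr-232 was 1.13 lower (adjusted p = 0.045).

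**Figure D4:**
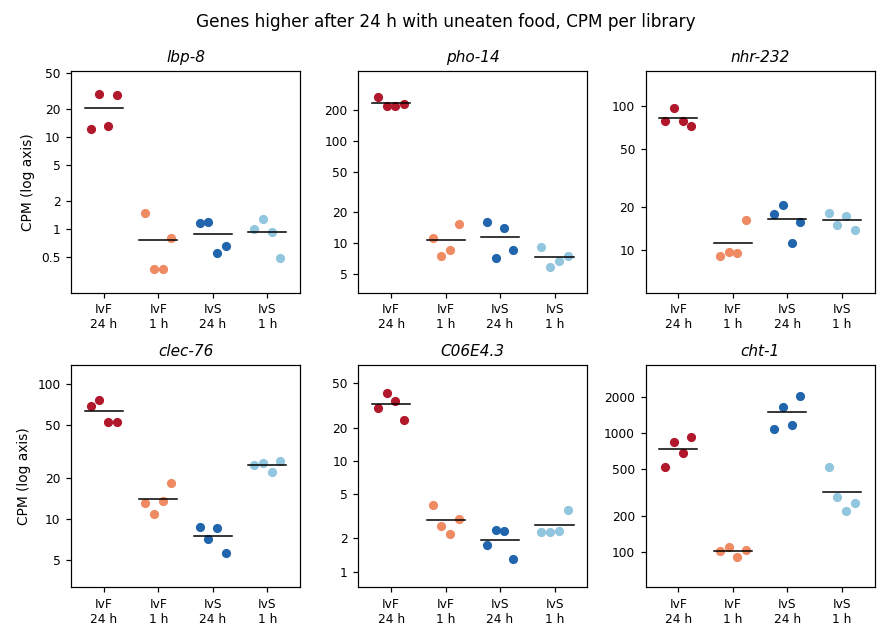
CPM per library (vertical log axes) of 6 genes that rose, at IvF 24 h, IvF 1 h, IvS 24 h and IvS 1 h, 4 libraries each, with the mean as a line. lbp-8, pho-14, nhr-232, clec-76 and C06E4.3 were highest at IvF 24 h, as for pho-14 with 221 to 270 CPM, and cht-1 was higher at 24 h than at 1 h in IvF and in IvS.

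The gene with the sequence name F15A4.8 was lowest at IvF 1 h: it was at 110, 115, 73.9 and 121 CPM at IvF 24 h, 2.01, 5.46, 4.36 and 5.30 CPM at IvF 1 h, and 24.4 to 95.9 CPM over both times of IvS. It rose by 4.63 ± 0.26 (adjusted p = 1.09e-05) and was 4.64 lower on the log2 scale in F than in S (adjusted p = 0.00099).

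Other rises occurred with and without food. cht-1 (exon overlap), a chitinase, was at 519, 835, 677 and 917 CPM at IvF 24 h and 102, 110, 92.1 and 105 CPM at IvF 1 h, and rose by 2.82 ± 0.17 (adjusted p = 1.31e-05). In IvS it rose by 2.28 (adjusted p = 0.0016), to 1072 to 2044 CPM at 24 h. abf-2, an antibacterial peptide, was at 7.13, 22.2, 9.71 and 21.3 CPM at IvF 24 h and 1.13, 1.79, 1.97 and 1.52 CPM at IvF 1 h, and rose by 3.19 ± 0.34 (adjusted p = 0.00032) and in IvS by 2.41 (adjusted p = 0.00019). The unnamed gene T26H5.9 was at 116, 235, 126 and 219 CPM at IvF 24 h and 6.64 to 13.5 CPM at IvF 1 h, and rose by 3.96 ± 0.31 (adjusted p = 5.62e-05) and in IvS by 2.96 (adjusted p = 0.00032). For these 3 genes the difference between the changes was not called (adjusted p = 0.817, 0.645 and 0.455).

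Among growth-related genes, some of DNA replication and the nucleolus, which feeding induced in F, were lower at IvF 24 h. Of 27 DNA replication genes, 7 were lower and 0 were higher, with a median of -0.24, and in IvS 0 were lower and 1 was higher, with a median of 0.21. In F against S, 23 were higher and 0 were lower. The count of lower genes was 3 without IvF 1 h library C and 4 without IvF 24 h library A. Summed over the list, A to D were at 638, 720, 717 and 813 CPM at IvF 24 h and 664, 832, 943 and 912 CPM at IvF 1 h. Summed early embryo markers, of which 0 of 7 were called, were at 25.2, 34.4, 41.8 and 72.3 CPM and at 33, 55.9, 88.9 and 90.3 CPM. In both sums A was the lowest library at each time, and the part of these markers in the falls was not tested. mcm-3 (exon overlap), a subunit of the replicative helicase, was at 20.3, 27.9, 28.4 and 34.9 CPM at IvF 24 h and 31.7, 46.3, 51.6 and 52.2 CPM at IvF 1 h. The groups overlapped in 1 library each, A at 1 h and D at 24 h, and mcm-3 fell by 0.72 (SE 0.13, adjusted p = 0.00571). mcm-2 (exon overlap) and pcn-1, the sliding clamp PCNA, fell by 0.89 (SE 0.19, adjusted p = 0.0104) and 0.68 (SE 0.12, adjusted p = 0.00325), with 19.9 to 35.5 and 25.8 to 41.0 CPM at IvF 24 h, against 29.3 to 65.4 and 38 to 60.2 CPM at IvF 1 h, and the groups overlapped for both. In the interaction 5 genes of the list had a more negative change in IvF and 0 a more positive one. mcm-3 was among them (adjusted p = 0.0172), while mcm-2 and pcn-1 were not called (adjusted p = 0.204 and 0.06).

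Of 26 nucleolar genes of ribosome biogenesis, 4 were lower at IvF 24 h (15.4%) and 2 were higher (7.69%), with a median of -0.15. The shares over all genes tested were 6.1% and 6.29%. In IvS 0 were lower and 2 were higher, with a median of 0.09, and 0 were called in the interaction. In F 19 were higher than in S. The lower count in IvF was 1 without IvF 1 h library B, and 2 without IvF 1 h library C or IvF 24 h library A. nol-58, a snoRNP protein, was at 115, 136, 147 and 122 CPM at IvF 24 h and 204, 287, 297 and 228 CPM at IvF 1 h, and fell by 0.96 (SE 0.16, adjusted p = 0.0032), with no overlap. fib-1, fibrillarin, was at 257, 278, 284 and 251 CPM at IvF 24 h and 372, 471, 478 and 385 CPM at IvF 1 h. It fell by 0.67 (SE 0.15, adjusted p = 0.0158), a call lost without IvF 1 h library B (adjusted p = 0.051).

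Ribosomal proteins, the translation machinery itself, leaned upward without passing the test. Of 82 cytosolic ribosomal protein genes 80 had a positive log2 fold change, with a median of 0.36, but 0 were called, against 38 higher in IvS, with a median of 0.49. Without IvF 1 h library A 20 were called higher, without both that library and IvF 24 h library D 80 were, without IvF 24 h library D 2 were, and with the block 8 were. rpl-3 was at 5197, 4636, 5331 and 4139 CPM at IvF 24 h and 4167, 3816, 3317 and 2909 CPM at IvF 1 h (0.43 ± 0.24, adjusted p = 0.28, and 0.0149 with the block, under the fold threshold). Of 32 aminoacyl-tRNA synthetases 4 were higher and 0 were lower, and 6 were higher in IvS. Without IvF 24 h library D, 7 were higher in IvF. lars-1, the leucyl-tRNA synthetase, was at 1117, 1315, 1104 and 1073 CPM at IvF 24 h and 590, 623, 540 and 520 CPM at IvF 1 h, and rose by 1.01 ± 0.18 (adjusted p = 0.00421) and in IvS by 0.89 (adjusted p = 0.0054). eef-2, elongation factor 2, was at 12152 to 14054 CPM at IvF 24 h and 6864 to 8648 CPM at IvF 1 h (0.75 ± 0.22, adjusted p = 0.0469), a call lost without any of 6 libraries, all but IvF 1 h library A and IvF 24 h library D (adjusted p up to 0.12).

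Of 43 respiratory chain genes 12 were lower at IvF 24 h and 0 were higher, with a median of -0.42, and 27 were lower in IvS, with a median of -0.52. The count in IvF was 3 without IvF 1 h library B, 4 without IvF 24 h library B or D, 5 without IvF 24 h library C and 6 without IvF 1 h library C. atp-2, the β subunit of ATP synthase, was at 2638, 2253, 2667 and 2228 CPM at IvF 24 h and 3298, 4468, 4052 and 3533 CPM at IvF 1 h, and its fall of 0.64 (SE 0.19, adjusted p = 0.0493) lost its call without any 1 library (adjusted p up to 0.14). mdh-1, a malate dehydrogenase, was at 329, 280, 301 and 293 CPM at IvF 24 h and 626, 817, 667 and 624 CPM at IvF 1 h, and fell by 1.19 (SE 0.17, adjusted p = 0.00126) and in IvS by 0.74 (adjusted p = 0.0006).

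**Figure D5:**
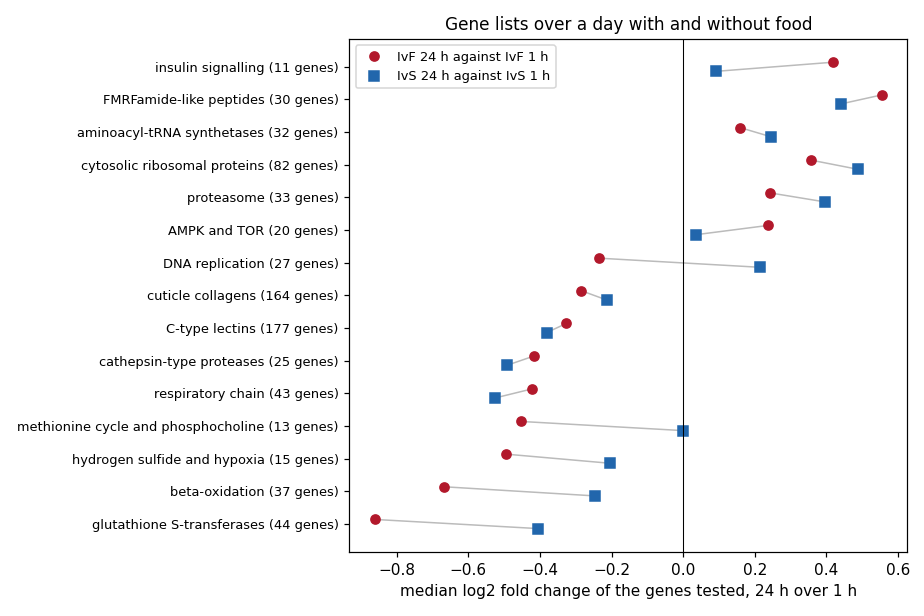
Median log2 fold change, 24 h over 1 h, of 15 gene lists (rows, with the number of genes tested) in IvF (circles) and IvS (squares). Insulin signalling lies at 0.42 in IvF and 0.09 in IvS, DNA replication at -0.24 and 0.21, the methionine cycle at -0.45 and 0.00, and the respiratory chain at -0.42 and -0.52.

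Some structural genes of cuticle and muscle fell with and without food. Of 164 cuticle collagen genes 18 were lower at IvF 24 h and 2 were higher, with a median of -0.28, and in IvS 21 were lower and 1 was higher, with a median of -0.21. col-160 (exon overlap) was at 29.1, 19.1, 41.8 and 34.3 CPM at IvF 24 h and 85.2, 240, 327 and 242 CPM at IvF 1 h, where A was the lowest, and fell by 2.81 (SE 0.37, adjusted p = 0.00135). It fell by 3.04 in IvS (adjusted p = 0.002). grd-13, a hedgehog-related secreted protein, was at 3.57 to 6.16 CPM at IvF 24 h and 12, 35.5, 36.5 and 33 CPM at IvF 1 h, and fell by 2.54 (SE 0.29, adjusted p = 0.000443) and in IvS by 2.84 (adjusted p = 0.0016). unc-54, the main body wall myosin heavy chain, was at 2945, 2384, 3287 and 2740 CPM at IvF 24 h and 4377, 4957, 6145 and 5170 CPM at IvF 1 h. It fell by 0.85 (SE 0.19, adjusted p = 0.0142), a call lost without IvF 24 h library B (adjusted p = 0.057), and by 0.90 in IvS (adjusted p = 0.002).

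Neuropeptides of the FMRFamide-like family, which modulate circuits of feeding and movement, leaned higher. All 30 FMRFamide-like peptide genes tested had a positive log2 fold change, with a median of 0.56, and 5 were called higher, against 7 in IvS with a median of 0.44. The count in IvF was 19 with the block, 22 without IvF 1 h library A, 12 without IvF 24 h library D and 27 without both. flp-3 was at 224, 184, 160 and 190 CPM at IvF 24 h and 105, 89.5, 82.4 and 80.0 CPM at IvF 1 h, and flp-33 (exon overlap) at 73.7 to 87.6 and 34.6 to 44.3 CPM. They rose by 1.07 ± 0.19 (adjusted p = 0.00442) and 1.03 ± 0.18 (adjusted p = 0.00372), each without overlap. The neuronal markers did not rise as a list beside these genes (0 of 8 called, 5 with a negative log2 fold change), although their sum was higher, and their part in the result was not tested. Of 76 neuropeptide-like protein genes 8 were higher (10.5%) and 4 were lower (5.26%), against 6.29% and 6.1% of all genes tested. The count of higher genes was 18 with the block, 25 without IvF 1 h library A, 13 without IvF 24 h library D and 1 to 4 without any other library.

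nlp-24 (exon overlap), which encodes opioid-like peptides, fell, with 9.82, 8.55, 9.33 and 8.14 CPM at IvF 24 h and 22.9, 48.7, 51.5 and 50.4 CPM at IvF 1 h. The fall was 2.24 on the log2 scale (SE 0.22, adjusted p = 0.000145) and in IvS 2.19 (adjusted p = 0.00082). tph-1 (exon overlap), the tryptophan hydroxylase that makes serotonin, the transmitter that drives feeding, was at 6, 7.16, 5.16 and 8.20 CPM at IvF 24 h and 10.1, 13.3, 12.9 and 15.7 CPM at IvF 1 h. No libraries overlapped, and tph-1 fell by 0.98 (SE 0.14, adjusted p = 0.00112). It was at 3.76 to 4.37 CPM at IvS 24 h and 5.17 to 6.62 CPM at IvS 1 h, and was 1.44 higher on the log2 scale in F than in S (adjusted p = 0.0006).

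Of 660 chemoreceptor genes tested, of 1310 annotated, 13 were higher (1.97%) and 4 were lower (0.606%), with a median of -0.02. Both shares were below the 6.29% and 6.1% of all genes tested. With the block 35 were higher and 15 were lower. odr-10, the receptor for the bacterial odour diacetyl, was at 35.5, 35.7, 30.9 and 35.8 CPM at IvF 24 h and 20.1, 14.6, 12.61 and 13.9 CPM at IvF 1 h, and rose by 1.14 ± 0.20 (adjusted p = 0.00421). It rose in IvS by 0.94 (adjusted p = 0.0057). srbc-20 (exon overlap) was at 13.2, 12.28, 9.22 and 14.5 CPM at IvF 24 h and 2.11, 2.68, 2.18 and 2.50 CPM at IvF 1 h, and rose by 2.36 ± 0.17 (adjusted p = 2.76e-05). In IvS srbc-20 was at 7.13 to 12.9 CPM at 24 h and 6.28 to 9.77 CPM at 1 h, the changes differed by 1.8 (adjusted p = 0.00351), and it was 4.69 lower on the log2 scale in F than in S (adjusted p = 3e-05).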

How the data were processed

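Libraries were made from poly(A) RNA of whole larvae with a non-directional kit. The deposited values are whole-number counts per gene, without normalization, which the authors made by mapping reads with Bowtie 1.1.2 to WS210 with WS220 transcripts and counting with HTSeq. The HTSeq mode and how multiply mapping reads were handled are not given in the sources used here. The HTSeq totals at the end of each file were left out. Within each ivermectin condition no library duplicated another, and other pairs of libraries were not compared. No position is given, because the WBcel235 annotation used for names (44443 of 44968 identifiers matched) is of another version.

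Genes were tested in R 4.3.3 with edgeR 4.0.16 (TMM normalization, robust quasi-likelihood F test) in separate fits of 8 libraries, filtered at 1 CPM in 4 IvF libraries, and of 16 for the interaction of food with time. Adjusted p values are Benjamini-Hochberg values over all 17192 genes, with thresholds of 0.05 for these and of 0.5 for the size of the log2 fold change. CPM divides by the library total, without TMM. Principal components used log2(CPM + 1).

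The replicates are described as biological, and p weighs each change against the spread among them, with estimates of that spread shared across genes. Deviations from the group mean were correlated between IvF libraries of one number (r = 0.485, 0.576, 0.193 and 0.745 for A to D), and the block is that number. The share of reads outside genes also rose from A to D at both IvF times, and its part in this correlation was not tested. For the interaction the block covers all 16 libraries, although IvS did not show this correlation. Values of p given without mention of the block are from fits that leave the number out.

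The genes named are a part of those given by 1 rule: the 10 largest rises and 10 largest falls among named genes and the 3 largest among unnamed, without overlap, the 5 most abundant called genes each way, up to 5 called members and the most abundant member of each list, the genes the study names, the 5 largest interactions each way, and the genes altered in the strain. Genes, lists and tests were chosen with earlier results of these data known. Alternatives were DESeq2 1.42.0, its size factors in edgeR, the exact test, other filters and fits, glmTreat, a covariate for the share of reads outside genes, and each library left out. The procedure was tested on simulated data.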

Additional observations from a re-analysis of the deposited data

Results flagged for a closer look

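Among 88 genes named, taken in IvF 24 h and in IvF 1 h, 15 of 176 groups of 4 libraries had 1 library far from the other 3 by Dixon's criterion, which chance meets in about 1 of 20 groups. At IvF 24 h these were 225 CPM of hil-1 and 30.9 CPM of odr-10 in library C (low), 17.7 CPM of stdh-2 in library A (high) and 20.3 CPM of rhy-1 in library D (high). At IvF 1 h, 6 of 11 were in library A: cpt-1 (2235 CPM) and cpt-5 (817 CPM) were high, and nlp-24 (22.9 CPM), pdk-1 (27 CPM), aakg-4 (20.8 CPM) and grd-13 (12 CPM) were low. The other 5 were in library D: acox-1.5 (74.4 CPM), nhr-232 (16.21 CPM) and ins-24 (11.6 CPM) were high, and cpr-4 (504 CPM) and ins-6 (5.00 CPM) were low.

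The change from 1 h to 24 h differed between IvF and IvS, by the interaction term of the 16-library fit, for 40 of the genes named. Values here are the change in IvF minus that in IvS on the log2 scale. It was more positive in IvF for lbp-8 (4.67), F15A4.8 (3.92), clec-76 (3.83), C06E4.6 (3.80), C06E4.3 (3.79), pho-14 (3.76), stdh-2 (2.93), cyp-33B1 (2.92), nhr-232 (2.76), hil-1 (2.24), fmo-2 (2.24), srbc-20 (1.8), mtl-1 (1.57), aakg-4 (1.52), hacd-1 (1.52), akt-1 (1.28), ins-24 (1.15), ist-1 (1.1), ech-7 (1.03), tts-1 (0.99), pdk-1 (0.99) and tps-1 (0.93). It was more negative in IvF for fmo-5 (-5.57), ugt-37 (-4.55), cysl-2 (-4.03), dhs-8 (-3.84), dhs-19 (-3.73), nhr-11 (-2.42), cpr-4 (-2.31), ugt-16 (-2.22), hrg-7 (-2.20), clec-4 (-2.11), mxl-3 (-1.75), lys-1 (-1.73), daf-28 (-1.38), ech-9 (-1.34), metr-1 (-1.15), sams-1 (-1.14), mcm-3 (-0.86) and acox-1.5 (-0.77). With the replicate block the calls of fmo-5, ugt-37, dhs-19, ugt-16 and ech-9 were lost, with an adjusted p of 0.0749, 0.0630, 0.0842, 0.0748 and 0.0537. Leaving out a library ended the calls of these 5 genes and of fmo-2, hacd-1, ech-7, tts-1, tps-1, cysl-2, metr-1, sams-1, mcm-3 and acox-1.5 for at least 1 library each, with an adjusted p of up to 0.11.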

How the results depend on the processing

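With a test against the fold threshold (glmTreat), 319 genes were higher and 369 lower at IvF 24 h than at IvF 1 h, 113 and 298 in IvS, 72 and 45 in the interaction, and 1131 and 1010 in F against S. Without an expression filter 692 genes were lower in IvF, and the interaction called 140 and 62. For the interaction, DESeq2 called 372 and 352, a filter at a mean of 5 CPM 382 and 278, a fit of all 24 libraries 133 and 75, and a covariate for the share of reads outside genes 453 and 257. Without a fold threshold 1260 genes were higher in IvS. Without both IvF 1 h library A and IvF 24 h library D, a setting chosen after the data were seen, 2049 were higher in IvF. Leaving out 1 library at a time gave 713 to 1471 higher and 741 to 1019 lower in IvF, 383 to 1182 and 687 to 1150 in IvS, 158 to 335 and 81 to 250 in the interaction, and 1683 to 2691 and 1422 to 2295 in F against S. The percent of variance between times was 33.3 to 43.5 in IvF and 31.0 to 49.6 in IvS with 1 library left out, and 25.9 and 27.7 with a pseudocount of 0.1, 48.3 and 48.5 with a pseudocount of 5, and 49.6 and 45.1 over the 1000 most variable genes. The causes were not tested.

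With the replicate block, 1446 genes were higher and 1347 lower in IvF, 597 and 802 in IvS, 288 and 208 in the interaction and 2745 and 2405 in F against S. In IvS, libraries of one number deviated apart (r of -0.337 to -0.17), so libraries of one number were alike in IvF and not in IvS. F and S were not examined for this. Of the 1757 values of 88 genes named under the alternatives in IvF, 1582 kept their direction and side of the threshold, 166 fell below it, 9 passed it and 0 reversed, and 51 genes kept theirs under every alternative run. Of 1040 values of the 40 interactions, 842 kept their side, 198 fell below it and 0 reversed. Promoter motifs were not run, since no promoter sequences were used here, and edgeR's exact test has no form for the interaction.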
